A study of Homo sapiens with 36 samples.

Results

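The clade B serpins described here are 7 human genes, SERPINB10, SERPINB2, SERPINB1, SERPINB6, SERPINB7, SERPINB8 and SERPINB9, of 13 clade B serpin genes looked for and 18048 genes with values. They were found by gene symbol, and all 7 held values at every exposure time. SERPINB10 was selected on its measured values in these libraries, in comparisons that are not recorded, so its values are described without a test. The other 6 were taken as its family, and their differences were tested. The RNA came from EA.hy926, a human hybrid line made by fusing an umbilical vein endothelial cell with a lung carcinoma cell, labelled as wild type. The cells received PFOA (perfluorooctanoic acid), a fluorinated surfactant that persists in the environment, for 48 h at 1, 10 or 100 µM, or for 6 or 12 weeks at 1, 10 or 100 nM. Each time had its own vehicle group, and 0.05% DMSO was the vehicle. The 12 groups held 3 libraries each, 36 in all, labelled as biological replicates of this 1 cell line. Nothing states that they came from separate thaws, so the tests measure the spread between these libraries.

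Clade B serpins are protease inhibitors that mostly lack a classical secretion signal and act inside the cell. A protease cleaves the exposed reactive loop of the serpin and is trapped in a covalent complex. In human cells SERPINB2, also called PAI-2, inhibits the plasminogen activators, SERPINB9 inhibits granzyme B, and SERPINB1 and SERPINB6 inhibit serine proteases of leukocyte granules. SERPINB8 inhibits furin, SERPINB7 (megsin) is known from mesangial cells and skin, and SERPINB10 (bomapin) is known from blood-forming cells.

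In RefSeq GRCh38.p14, SERPINB7, SERPINB2, SERPINB10 and SERPINB8 lie on the plus strand of chromosome 18, and SERPINB1, SERPINB9 and SERPINB6 on the minus strand of chromosome 6. The chromosome 18 genes span chr18:63753057-63805370, chr18:63887705-63903888, chr18:63907958-63936111 and chr18:63970081-64019779 in that order. The chromosome 6 genes span chr6:2832332-2841863, chr6:2887270-2903309 and chr6:2948159-2971793. Promoters were read from RefSeq for 6 of the 7 members, with none for SERPINB10. Each runs from 250 bases before an annotated start to 50 bases after it. Sequences of 5 members are shown, because they differ in base composition and in 2 short motifs. Capitals mark the AP-1 motif TGANTCA, which reads alike on both strands, and the TATA box letters TATAAA, searched on both strands.
SERPINB2, chr18:63887455-63887754, plus strand: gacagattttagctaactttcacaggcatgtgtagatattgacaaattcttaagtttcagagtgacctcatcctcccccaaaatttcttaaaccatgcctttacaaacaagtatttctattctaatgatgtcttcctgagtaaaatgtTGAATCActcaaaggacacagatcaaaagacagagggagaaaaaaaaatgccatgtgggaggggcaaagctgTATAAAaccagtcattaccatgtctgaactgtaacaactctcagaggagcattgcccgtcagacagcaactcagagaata
SERPINB8, chr18:63969831-63970130, plus strand: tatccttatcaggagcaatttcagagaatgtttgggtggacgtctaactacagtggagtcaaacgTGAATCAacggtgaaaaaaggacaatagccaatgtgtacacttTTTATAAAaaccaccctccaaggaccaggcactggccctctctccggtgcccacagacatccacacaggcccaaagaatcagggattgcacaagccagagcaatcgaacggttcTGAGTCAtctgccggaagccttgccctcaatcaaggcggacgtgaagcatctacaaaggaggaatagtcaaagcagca
SERPINB7, chr18:63777531-63777830, plus strand: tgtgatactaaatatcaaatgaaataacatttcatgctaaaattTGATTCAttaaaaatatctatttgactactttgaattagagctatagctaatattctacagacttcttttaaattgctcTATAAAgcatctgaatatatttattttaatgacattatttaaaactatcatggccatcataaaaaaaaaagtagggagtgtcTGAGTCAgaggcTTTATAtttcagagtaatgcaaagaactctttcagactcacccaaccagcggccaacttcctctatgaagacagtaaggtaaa
SERPINB9, chr6:2903260-2903559, minus strand: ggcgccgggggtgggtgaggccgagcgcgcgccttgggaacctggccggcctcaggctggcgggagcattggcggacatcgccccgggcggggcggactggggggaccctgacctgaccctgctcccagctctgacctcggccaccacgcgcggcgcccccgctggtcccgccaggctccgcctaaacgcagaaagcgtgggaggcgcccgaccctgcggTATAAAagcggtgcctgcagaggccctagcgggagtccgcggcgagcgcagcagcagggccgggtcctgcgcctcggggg
SERPINB6, chr6:2971518-2971817, minus strand: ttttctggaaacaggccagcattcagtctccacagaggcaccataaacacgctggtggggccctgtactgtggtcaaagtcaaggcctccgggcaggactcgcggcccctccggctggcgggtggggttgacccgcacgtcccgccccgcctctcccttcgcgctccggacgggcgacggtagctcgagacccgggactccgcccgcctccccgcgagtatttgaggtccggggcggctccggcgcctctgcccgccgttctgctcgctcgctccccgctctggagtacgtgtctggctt

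The SERPINB2 promoter held 1 AP-1 match, beginning 102 bases before the start, and a TATA box 30 bases before it. The SERPINB8 promoter held AP-1 matches 185 and 28 bases before the start, and its TATA letters matched on both strands at overlapping places. Of 3 SERPINB7 starts, 2 held AP-1 matches, and the start shown is the one that also held TATA letters. No promoter of SERPINB1, SERPINB9 or SERPINB6 held an AP-1 match, over 6 starts, while SERPINB9 had TATA letters 30 bases before its start and SERPINB6 had them at another of its starts. Among 35116 RefSeq promoters of the same length, 7.71% held TGANTCA and 11.5% held TATAAA. GC content was 39.0% in the SERPINB2 promoter and 75.7% in the SERPINB9 promoter, against a median of 58.7% over all promoters. These matches describe letters and not bound sites.

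Counted reads were 17815292 to 19466331 per library. Ribosomal protein genes (81 measured) took from 9.35% to 22.2% of reads, and the first principal component held 69.2% to 83.8% of the variance within an exposure time. By group the share was 9.35% to 13.4% at 10 nM and 11.7% to 16.3% at 100 nM, against 17.2% to 19.4% in vehicle, at 6 weeks. Of 10 endothelial markers, 8 averaged at least 10 normalised counts at each time, while CLDN5 was at or near 0 and KDR averaged 1.39 to 2.34. Of 9 leukocyte and myeloid markers with values, 2 passed that level, CD68 and CSF1R, with PTPRC and MPO at or near 0. No fibroblast marker of 5 passed it. The keratinocyte markers KRT5 and KRT14 were near 0, while KRT10, TP63 and, at the long exposures, IVL passed it. KRT8 and KRT18 were abundant among the 9 epithelial markers and CDH1 was at or near 0. The summed epithelial markers lay at 13543 to 27156 normalised counts at 10 nM and 18818 to 38106 at 100 nM, against 54176 to 90326 in vehicle, at 6 weeks. KRT8 and KRT18 made up nearly all of that sum, with 6-week means of 16998 and 27217, against 104 for MUC1 and 11.8 for EPCAM. Of the 4 epithelial markers tested at 6 weeks, 1 was above vehicle and 3 were below it, at both 10 and 100 nM.

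All values below are normalised read counts, the reads of a gene divided by a size factor for the library, and differences are log2(count + 1) in PFOA minus vehicle. Per kilobase of the longest protein-coding GENCODE 29 transcript, SERPINB2 had the highest level of the members at every time, with 4206, 5835 and 12179 normalised counts per kilobase at 48 h, 6 weeks and 12 weeks. SERPINB6 followed with 611, 545 and 656. SERPINB10 was the lowest, with 4.25, 12.0 and 10.1. SERPINB8 and SERPINB1 lay between 227 and 379, SERPINB7 between 72.7 and 329, and SERPINB9 between 39.6 and 62.8. Each exposure time was deposited as its own set of normalised counts, and levels were not tested between times. The other clade B genes with values, SERPINB3, SERPINB4, SERPINB5, SERPINB12 and SERPINB13, averaged under 2 normalised counts at each time, and SERPINB11 was listed without values.

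SERPINB10 was higher at 10 and 100 nM than in vehicle at 12 weeks. At 12 weeks it had 8.70, 11.4 and 10.2 normalised counts at 1 nM, 40.3, 37.7 and 35.9 at 10 nM and 21.2, 48.4 and 21.1 at 100 nM, against 8.91, 5.56 and 8.30 in vehicle. Every library at 10 and 100 nM lay above every vehicle library, and the 1 nM libraries overlapped them. Groups not overlapping vehicle, higher or lower, were found for 3.28% of all genes at 10 nM and 4.64% at 100 nM. Mean SERPINB10 counts were 5.00 times the vehicle mean at 10 nM and 3.99 times at 100 nM. The log2 differences were 0.39, 2.20 and 1.78 at 1, 10 and 100 nM. Reads behind these values were few, with 123 over the 3 libraries at 10 nM, 88 at 100 nM and 20 in vehicle. Exact Poisson 95% intervals, which cover counting error only, ran from 102 to 147, 70.6 to 108 and 12.2 to 30.9 reads. They are of reads summed without size factors and do not test the groups, as SERPINB10 was selected on its values. At 100 nM replicate 2 carried the highest value, and the log2 difference was 1.39 without it.

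**Figure D1:**
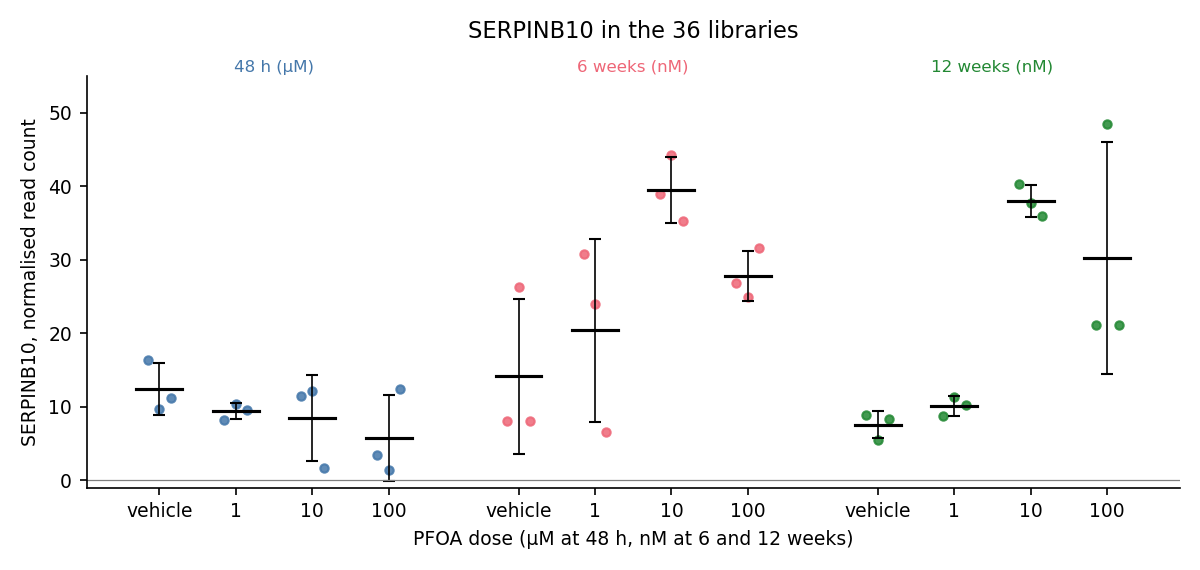
SERPINB10 in every library. Points are libraries, bars the group mean and whiskers the SD of 3 libraries, on a linear axis of normalised read counts, with doses in µM at 48 h and in nM at 6 and 12 weeks. At 12 weeks all libraries at 10 and 100 nM lie at 21.1 or above, and the vehicle libraries at 8.91 or below.

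At 6 weeks SERPINB10 also had its highest mean at 10 nM. It had 30.7, 23.9 and 6.59 normalised counts at 1 nM, 39.0, 44.2 and 35.2 at 10 nM, and 26.9, 24.9 and 31.5 at 100 nM, against 8.08, 26.3 and 8.09 in vehicle. Every 10 nM library was above the vehicle libraries, while those at 100 nM overlapped vehicle replicate 2. Among all genes, 60.3% had 10 nM and vehicle groups that did not overlap. The log2 differences of SERPINB10 were 0.47, 1.62 and 1.13 at 1, 10 and 100 nM. When the fit carried the first principal component as covariate, they were 0.64 at 10 nM and 0.39 at 100 nM at 6 weeks, and 2.23 and 1.80 at 12 weeks. The 12-week differences were as large with that covariate, and those at 6 weeks were smaller. The component was taken from all 12 libraries of a time, dose groups included. At 6 weeks it was 0.133 to 0.370 at 10 nM and 0.0340 to 0.252 at 100 nM, against -0.499 to -0.0815 in vehicle. A fit with it at 6 weeks therefore cannot separate dose from the component. At 12 weeks the 10 and 100 nM groups overlapped vehicle on it.

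At 48 h SERPINB10 was low, with a mean of 9.02 normalised counts, under the minimum of 10. It had 8.25, 10.5 and 9.60 normalised counts at 1 µM, 11.5, 12.2 and 1.74 at 10 µM and 3.49, 1.36 and 12.4 at 100 µM, against 16.4, 9.68 and 11.2 in vehicle. All dose groups overlapped vehicle. Over the 12 groups the order of mean SERPINB10 levels began with 6 weeks at 10 nM (39.5 ± 4.52), 12 weeks at 10 nM (38.0 ± 2.20) and 12 weeks at 100 nM (30.2 ± 15.7; SD, n = 3 each), and ended with 12-week vehicle (7.59 ± 1.79) and 48 h at 100 µM (5.76 ± 5.86). Each pair of neighbours in that order differed by less than the larger of their SDs. Levels across exposure times are set side by side and were not tested.

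Reads of SERPINB10 and SERPINB2 can be hard to separate in some annotations. In GENCODE 29 the SERPINB10 gene reaches into SERPINB2, with 547 exon bases in common, and 519 of 2698 SERPINB10 31-base words (19.2%) also occur in SERPINB2. No other pair of members shared such a word. In RefSeq the genes lie 4069 bases apart, and the annotation used for counting is not given in the sources used here. SERPINB10 amounted to 0.0266% to 0.0513% of SERPINB2 at 1 nM, 0.145% to 0.292% at 10 nM and 0.0543% to 0.0970% at 100 nM, against 0.0413% to 0.0514% in vehicle, at 12 weeks. At 6 weeks the shares were 0.0889% to 0.227% at 1 nM, 0.236% to 0.272% at 10 nM and 0.176% to 0.306% at 100 nM, against 0.0961% to 0.210% in vehicle. The shares at 10 nM lay above vehicle at both times, and those at 100 nM did so at 12 weeks. Those at 100 nM at 6 weeks and at 1 nM at both times overlapped vehicle. The shares contain the SERPINB10 values on which the gene was selected, so they do not test the groups. The part of the shared sequence in the SERPINB10 values was not tested.

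**Figure D2:**
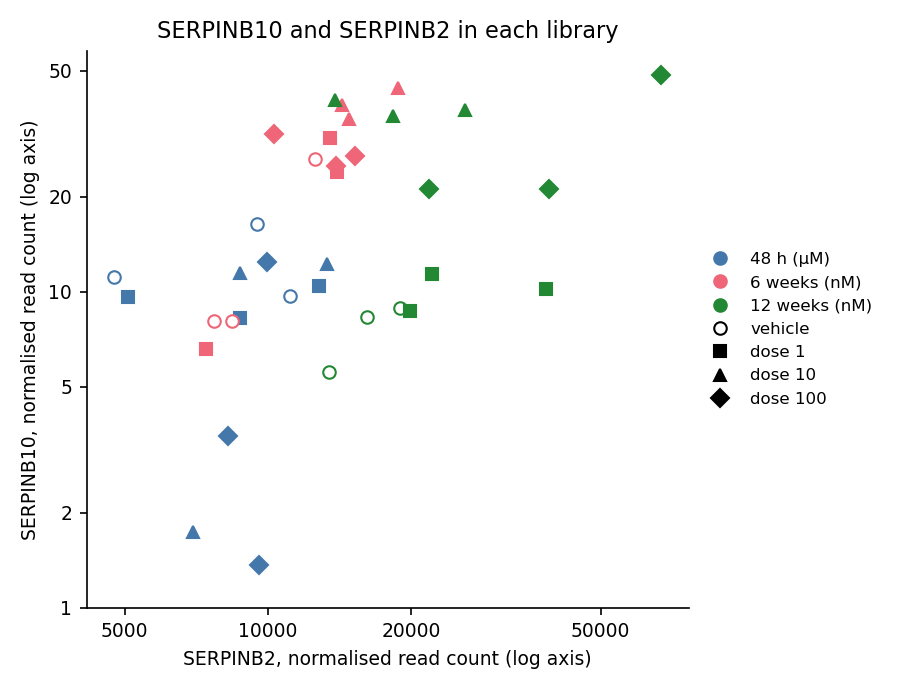
SERPINB10 against SERPINB2 in each of the 36 libraries, both as normalised read counts on log axes, coloured by exposure time, with the dose given by the symbol and vehicle drawn open. The 12-week 10 nM libraries lie above the 12-week vehicle libraries in SERPINB10. Their SERPINB2 counts run from 13802 to 25958, against 13469 to 18976 in vehicle.

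SERPINB2, which inhibits urokinase and tissue plasminogen activator, was the most abundant member and was highest at 100 nM after 12 weeks. It had 21833, 67054 and 38966 normalised counts at 100 nM, against 18976, 13469 and 16134 in vehicle, at 12 weeks. The groups did not overlap, but the difference of 1.26 ± 0.45 (SE) did not pass, with an adjusted p of 0.751 by limma. Without replicate 2 at 100 nM, the highest library, the difference was 0.86. At 12 weeks it was 0.68 ± 0.45 at 1 nM (0.39 without replicate 3 of that group) and 0.22 ± 0.45 at 10 nM. The 10 nM value was 0.44 without replicate 1 and -0.01 without replicate 2 of that group. At 6 weeks SERPINB2 had 14309, 18757 and 14824 normalised counts at 10 nM, against 8412, 12537 and 7702 in vehicle. That difference of 0.76 ± 0.33 had an adjusted p of 0.102 by limma. Quantile normalization moved it to 1.60, and the 12-week difference at 10 nM to 0.79, without a call, and the principal component covariate gave 0.29 at 6 weeks.

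SERPINB7 was higher in several long-exposure groups, without passing the test. It had 808, 750 and 1502 normalised counts at 100 nM, against 458, 163 and 679 in vehicle, at 12 weeks. The groups did not overlap, and the difference was 1.39 ± 0.54 (limma adjusted p of 0.751). At 6 weeks SERPINB7 had 468, 450 and 507 normalised counts at 10 nM, against 116, 237 and 263 in vehicle. That difference was 1.29 ± 0.49 (limma adjusted p of 0.0953), and 0.01 with the principal component covariate. For 12 weeks at 100 nM the covariate gave 0.73, and leaving out vehicle replicate 2, the lowest library, gave 0.80.

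SERPINB6 and SERPINB9 lay on opposite sides of vehicle at 6 weeks. SERPINB6, an inhibitor of cathepsin G, had 1613, 1304 and 1246 normalised counts at 10 nM, against 6173, 3566 and 2847 in vehicle. The groups did not overlap, and the difference of -1.53 ± 0.54 had an adjusted p of 0.0953 by limma. It passed with DESeq2 on recovered reads (adjusted p of 0.0264) and when limma was fitted to the 2 groups alone (adjusted p of 0.0153), fits that called 30.4% and 38.9% of all genes. With the principal component covariate it was -0.11. SERPINB9, the granzyme B inhibitor, had 189, 204 and 238 normalised counts at 10 nM, against 84.1, 109 and 191 in vehicle. These groups overlapped, the difference was 0.79 ± 0.37 (limma adjusted p of 0.118), and it was 0.03 with the covariate and 0.43 with quantile normalization. The ribosomal protein share and the summed epithelial markers differed between these same groups, and their part in the differences was not tested.

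SERPINB8 and SERPINB1 varied least. SERPINB8, a furin inhibitor, had 945, 1000 and 893 normalised counts at 10 µM, against 761, 794 and 542 in vehicle, at 48 h. Those groups did not overlap, and the difference was 0.46 ± 0.21 (limma adjusted p of 0.960), and 0.28 without vehicle replicate 3, the lowest library. SERPINB1, an inhibitor of neutrophil elastase, differed from vehicle by -0.13 to 0.12 over the 9 doses and times. Its highest library was 1.26, 1.44 and 1.58 times its lowest at 48 h, 6 weeks and 12 weeks, against 7.35, 5.29 and 5.52 times for SERPINB6.

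**Figure D3:**
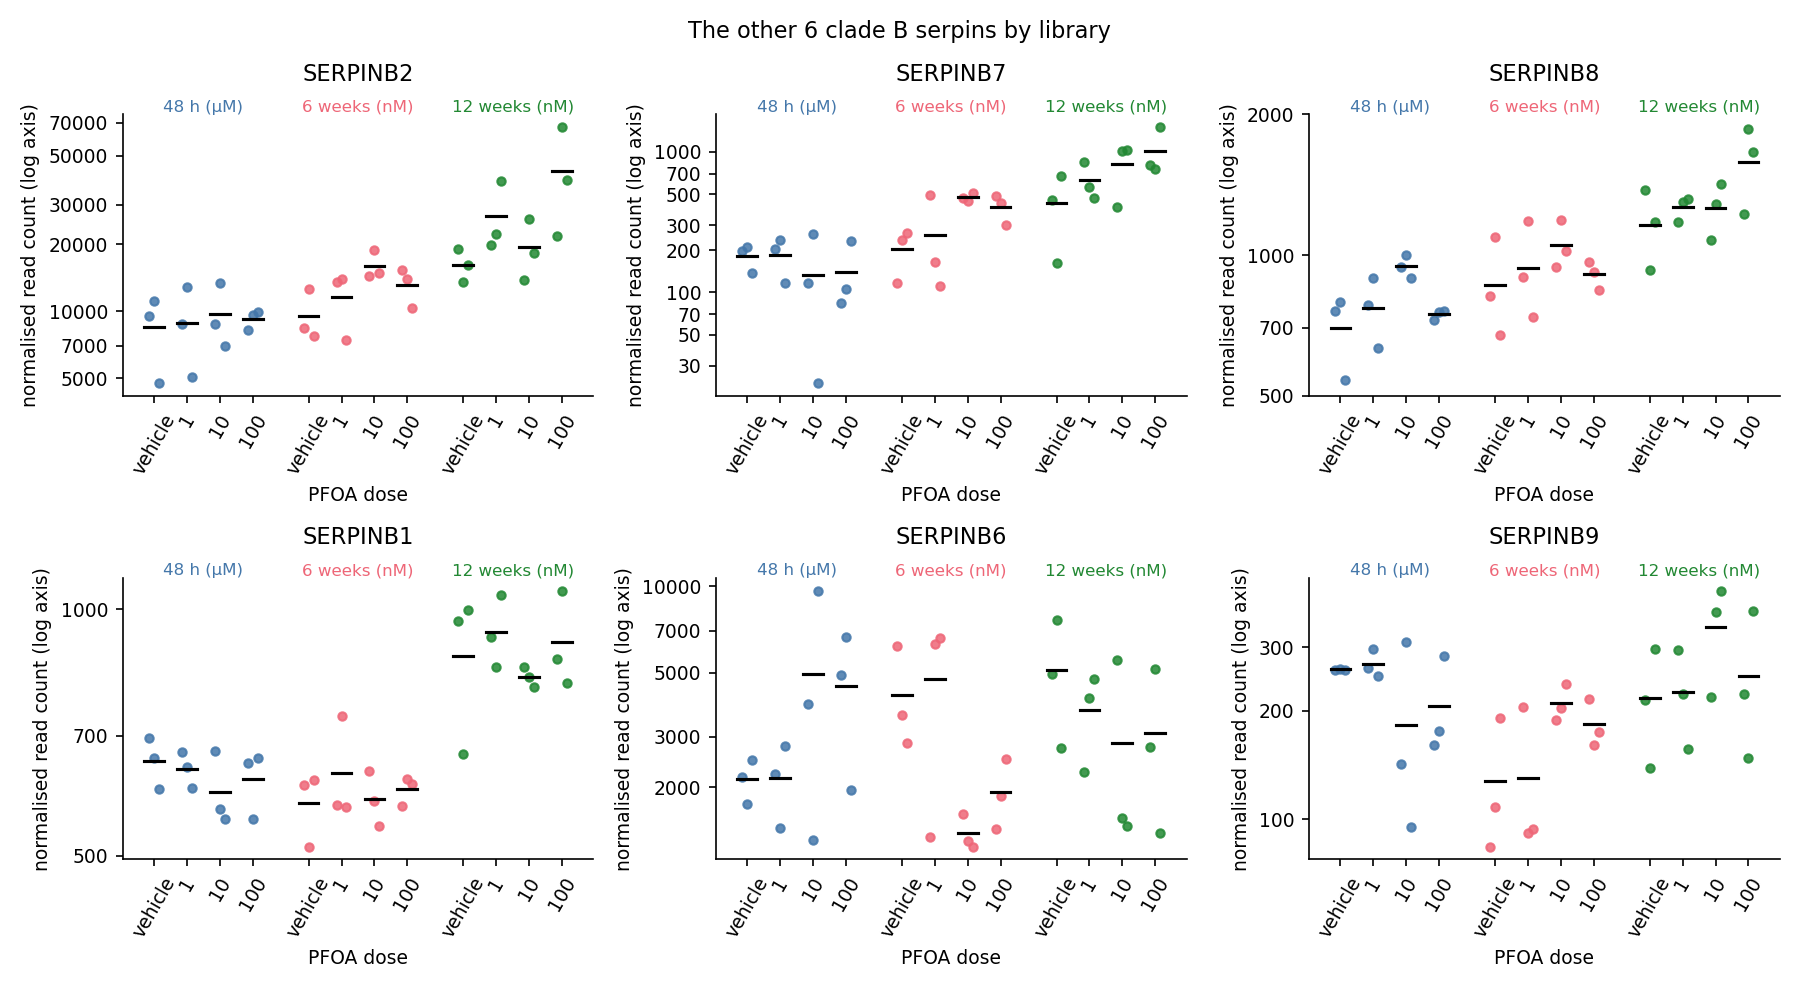
The other 6 members in every library, as normalised read counts on log axes. Points are libraries and bars arithmetic means of 3 libraries, with doses in µM at 48 h and in nM at 6 and 12 weeks. SERPINB6 at 6 weeks and 10 nM lies at or below 1613, under all vehicle libraries.

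No tested member passed an adjusted p of 0.05 by limma in any comparison, over 18 member and dose pairs at each time. This was also the case for the slope over the dose steps and for the 12-week minus 6-week difference of differences. Neither did any other gene, with 0% of all genes called in each of these 15 comparisons. On recovered reads edgeR called no member, and DESeq2 called SERPINB6 at 6 weeks, at 10 nM and for the slope, beside 3706 and 3174 genes in all, or 30.4% and 26% of those tested. At an unadjusted p under 0.05 by limma, none of the 18 member pairs passed at 48 h, 3 at 6 weeks and 2 at 12 weeks. For the slopes, pooled over exposure times with unlike backgrounds, 5 of 18 passed. None passed for the difference between the long exposures. The background at that threshold was 0.049%, 2.82% and 1.99% of all genes at 1, 10 and 100 µM for 48 h. It was 0.254%, 44.0% and 12.2% at 1, 10 and 100 nM for 6 weeks, and 0.195%, 1.37% and 2.33% for 12 weeks. For the slopes it was 4.25%, 44.6% and 2.22% at 48 h, 6 weeks and 12 weeks, and for the difference between the long exposures 0.208%, 0.349% and 0.565% at 1, 10 and 100 nM. The 3 member pairs of 6 weeks, SERPINB2, SERPINB6 and SERPINB7 at 10 nM, thus stand beside a background of 44.0%.

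Groups that did not overlap vehicle were counted over the 6 members other than SERPINB10, which was selected on its values. At 48 h this held for 1 of 6 at 10 µM (SERPINB8), against 6.19% of all genes, and for none at 1 and 100 µM, where the background was 2.31% and 10.8%. At 6 weeks it held for 3 of 6 at 10 nM and 2 of 6 at 100 nM, with a background of 60.3% and 47.3%, and for none at 1 nM, with 1.31%. At 12 weeks it held for 1 of 6 at 1 nM (SERPINB2), none at 10 nM and 2 of 6 at 100 nM (SERPINB2 and SERPINB7), with a background of 2.46%, 3.28% and 4.64%. An exact permutation test of 3 against 3 libraries cannot go below 0.1.

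**Figure D4:**
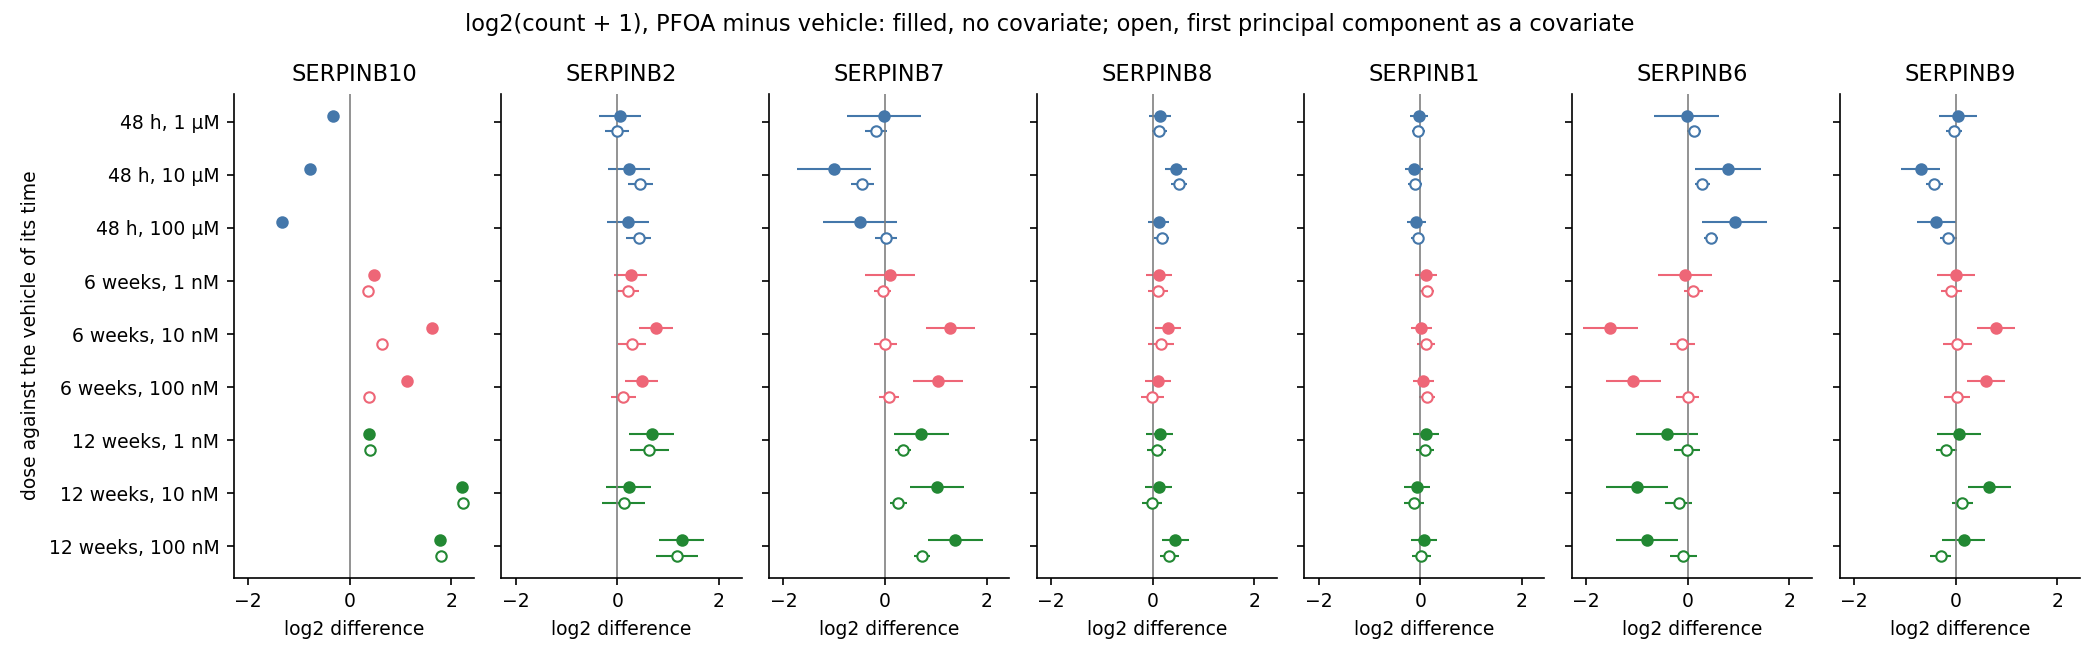
Differences in log2(count + 1) between each PFOA dose and the vehicle of its time, for 7 members. Filled points have no covariate and open points the principal component covariate; lines are the SE, not drawn for SERPINB10. At 6 weeks and 10 nM the open points of SERPINB6 and SERPINB7 lie at -0.11 and 0.01, and that of SERPINB10 lies below its filled point. The component cannot be separated from dose at 6 weeks, so these points cannot be compared with those at 12 weeks. The open points of SERPINB10, which was selected on its values, lie at 2.23 and 1.80 at 12 weeks.

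SERPINB6, SERPINB7 and SERPINB9 followed the ribosomal protein share closely from library to library within groups, as many genes did, and SERPINB2 did so less closely. Over the 36 libraries, each centred on its group mean and permuted within groups, SERPINB6 had Pearson's r = 0.938 and Spearman's rho = 0.926. Its permutation p of 1e-05, the smallest the 100000 permutations can give, was 3e-05 after Benjamini-Hochberg adjustment over the 6 members tested, for both measures. SERPINB7 had r = -0.851 and rho = -0.868 (adjusted permutation p of 3e-05 for both), and SERPINB9 had r = -0.841 and rho = -0.805 (4e-05 for both). Without the 2 libraries whose group-centred share lay farthest from the median of these centred shares, r was 0.922, -0.822 and -0.805 for SERPINB6, SERPINB7 and SERPINB9. Among 11951 genes, 6.26%, 30.2% and 32.6% had an r at least as large in size as these 3 members. SERPINB2 had r = -0.492 and rho = -0.521 (adjusted permutation p of 0.0273 and 0.0174), and r = -0.422 without those libraries. SERPINB8 had r = -0.360 and rho = -0.422, of which rho passed (adjusted permutation p of 0.0767 and 0.0365). Most genes had an r at least as large in size, 77.2% for SERPINB2 and 84.7% for SERPINB8. SERPINB1 had r = 0.058 and rho = 0.053 (adjusted permutation p of 0.782 and 0.796). SERPINB10, given without a test, had r = -0.340 and rho = -0.186, and 85.6% of genes had an r at least as large in size.

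**Figure D5:**
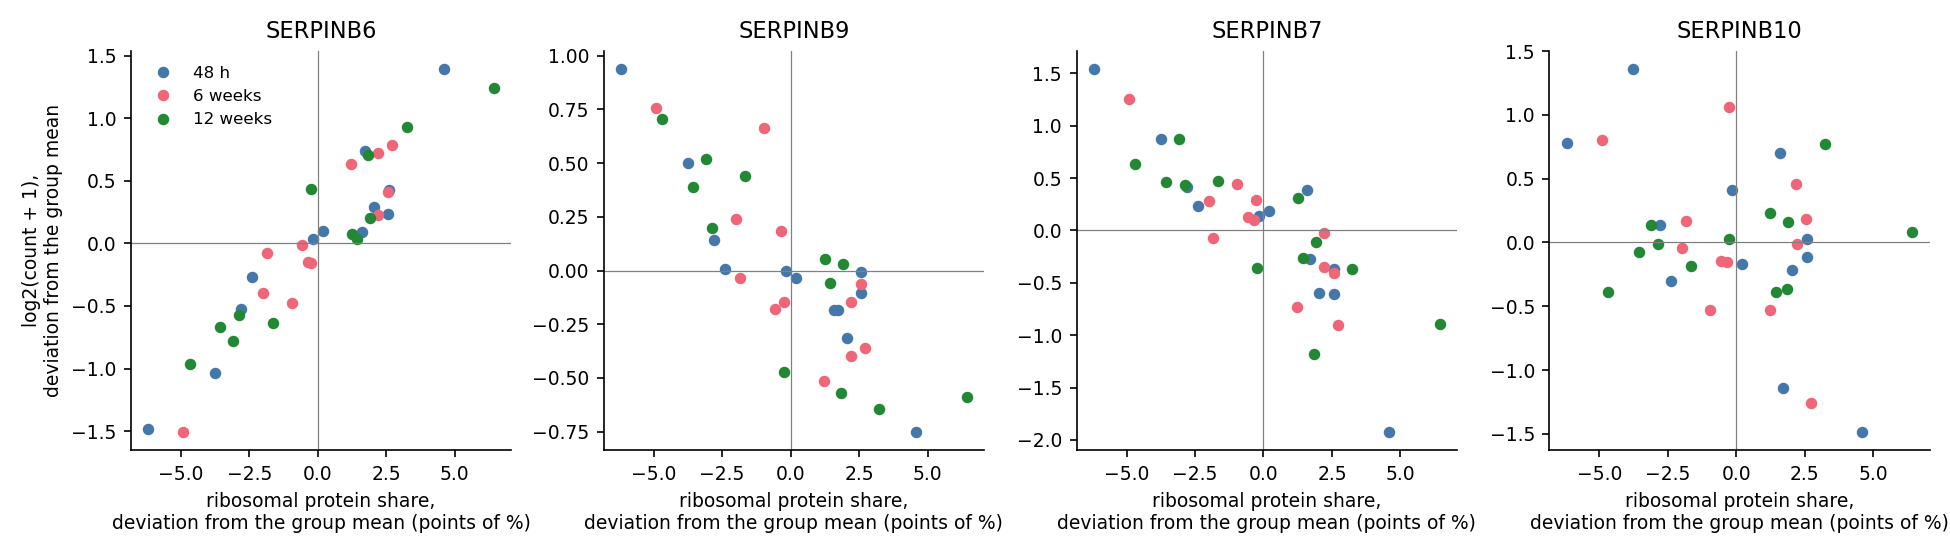
Deviation of log2(count + 1) from the group mean against the deviation of the ribosomal protein share, for 36 libraries coloured by exposure time. SERPINB6 rises with the share (r = 0.938), SERPINB9 and SERPINB7 fall with it (r = -0.841 and -0.851), and SERPINB10 is scattered (r = -0.340).

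Over the same libraries, with each exposure time centred on its own mean, the genes most like SERPINB10 among 11825 were ZNF17 (r = 0.768), PRIM2 (0.766), KLF4 (0.764), IFIT1 (0.761) and ABHD17B (0.754). Those most like SERPINB2 among 11824 were MMP1 (0.925), ANKRD13A (0.881), GART (0.873), BCAT1 (0.855) and TRIP13 (0.853), and SERPINB8 was rank 14 with r = 0.816. SERPINB6 had r = -0.934 with SERPINB9 and -0.923 with SERPINB7, and SERPINB7 and SERPINB9 had r = 0.865. These are descriptions over libraries that share exposure groups and the ribosomal protein share.

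The proteases that clade B serpins inhibit, with the urokinase receptor, gave 0 calls by limma among 13 of 21 genes tested at 48 h and 6 weeks and 12 at 12 weeks. Their median difference at 6 weeks and 10 nM was -0.10, against 0.05 over all genes. PLAU, the urokinase gene, had 9161 to 10342 normalised counts at 10 nM, against 6024 to 9603 in vehicle, at 6 weeks. The target of SERPINB6, CTSG, had 9.19 to 23.4 normalised counts at 10 nM, against 29.3 to 69.5 in vehicle, a difference of -1.65 ± 0.62 (limma adjusted p of 0.0953). The granzyme B gene GZMB averaged under 2 normalised counts at each time. Of 14 serpins of other clades, 8 were tested at 48 h, 6 at 6 weeks and 8 at 12 weeks, with 0 calls. Their median difference at 6 weeks and 10 nM was -0.33, with 3 above and 3 below 0. The highest of them, SERPINE2, an inhibitor of thrombin and plasminogen activators, had 106 to 132 normalised counts at 10 nM, against 11.3 to 35.4 in vehicle, at 6 weeks (2.34 ± 0.70, limma adjusted p of 0.0953).

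Of 12 genes within 500 kb of a member and with a mean of at least 10 at some time, none was called. Of these genes, 11 were tested at 48 h and 6 weeks and 10 at 12 weeks. At 6 weeks and 10 nM, 4 of their differences were above 0 and 7 below, with a median of -0.33 against 0.05 over all genes. They included 1.55 ± 0.65 for VPS4B near the chromosome 18 members, and 1.38 ± 0.55 for WRNIP1 and -1.34 ± 0.46 for NQO2 near the chromosome 6 members. In RefSeq, SERPINB2 overlaps LOC124904356, SERPINB1 overlaps LOC124905367, SERPINB8 overlaps LOC105372165 and SERPINB9 overlaps SERPINB9-AS1. None of these overlapping genes was among the genes with values. In GENCODE 29, SERPINB8 also overlaps HMSD and AC009802.1. HMSD averaged 15.7, 12.6 and 7.73 normalised counts at 48 h, 6 weeks and 12 weeks. The use of strand in counting is not given in the sources used here. In these bulk libraries, fewer cells that express a gene and less RNA per cell cannot be told apart.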

How the data were processed

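Messenger RNA of 36 libraries was read as 150 bp pairs, per the labels' protocols. The deposited signal values are size-factor normalised read counts made by the authors, 1 per gene and library. The submitters' processing notes name the tools HISAT, Bowtie2 and DESeq2 and the build GRCh38.p14. How reads were counted, and with which strand setting, is not given in the sources used here. Values in a library are multiples of 1 step, and dividing by it gave whole reads (100% of values, to a tolerance of 0.01), which edgeR 4.0.16 and DESeq2 1.42.0 used as alternatives.

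Differences were tested two-sided with limma 3.58.1 (R 4.3.3, trended prior) on log2(signal + 1), over the 12 libraries of a time. A gene was tested if it averaged 10 or more, which left 12233 at 48 h, 12201 at 6 weeks and 12304 at 12 weeks, and p-values were adjusted over them by Benjamini-Hochberg with a threshold of 0.05. The log2(signal + 1) scale understates differences of low genes. The dose slope used equal steps from vehicle to the highest dose. Differences of differences used 24 libraries and 12037 genes.

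The scripts were tested on simulated data. The members and lists were chosen with earlier results of these data known. All 7 members are plotted in every group, while the text gives the values of some groups only. The genes most like SERPINB10 and SERPINB2 are the 5 with the highest correlation, and neighbours lie within 500 kb. Between 10 nM and vehicle at 6 weeks, same-numbered libraries deviated together (correlations of 0.665, 0.550 and 0.343). In the other comparisons at least 1 correlation was at or under 0.1. Alternatives were other pseudocounts, filters, quantile normalization, a replicate block, the first principal component as a covariate, only the groups compared, and leaving out each library.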

Additional observations from a re-analysis of the deposited data

How the results depend on the processing

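Member calls at 6 weeks numbered 0 in the reported fit. They were 1 with DESeq2 (SERPINB6 at 10 nM), 2 with only the groups compared (SERPINB6 and SERPINB7 at 10 nM), and 0 to 3 when each library was left out. The 3 calls, SERPINB6, SERPINB9 and SERPINB7 at 10 nM, came without replicate 1 at 1 nM, and 2 (SERPINB6 and SERPINB7) without replicate 3 at 1 nM. Member calls for the dose slope were 0 in the reported fit, 1 with DESeq2 (SERPINB6 at 6 weeks) and 0 to 3 with a library left out; the 3 were SERPINB6, SERPINB9 and SERPINB7 at 6 weeks without replicate 1 at 1 nM. edgeR called none of the members. These fits also called many other genes: at 6 weeks and 10 nM 30.4% of all genes with DESeq2, 38.9% with only the groups compared, and 48.7% and 26.3% without replicate 1 and replicate 3 at 1 nM. For the slope at 6 weeks they called 26% with DESeq2 and 58.1% without replicate 1 at 1 nM. Over all genes, the reported limma fit and edgeR called 0 in each comparison, and DESeq2 called 3706 at 10 nM and 3174 for the slope at 6 weeks and 0 to 2 elsewhere. With a replicate block, no call changed, and SERPINB6 at 6 weeks and 10 nM stayed at -1.53 (adjusted p of 0.146 by limma). Fits that omit a library of a group outside the comparison were left aside here. Of 1620 values of the 6 tested members under alternatives, 1613 kept their side of the threshold and 7 passed it. A change of sign counted as reversed only if the reported difference was at least its SE or a call was involved, and none was. Smaller differences could change sign, as that of SERPINB2 at 10 nM after 12 weeks did without replicate 2 of that group. Of 190 values of SERPINB10, 6 moved by more than the replicate SD, among them 1.45 at 10 nM and 1.13 at 100 nM after 12 weeks with a pseudocount of 10. SERPINB10 at 48 h was under the minimum and was not refitted. Its few reads limit its precision.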
